A study of Homo sapiens with 6 samples.

Results

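Ephrins and Eph receptors were examined through the 10 genes of the family that were followed here, which were 6 receptors (EPHA1, EPHA2, EPHA4, EPHB2, EPHB3 and EPHB4) and 4 ephrins (EFNA1, EFNA4, EFNB1 and EFNB2). They were found by matching Ensembl gene identifiers to symbols, and all 10 were present among the 56632 genes of the deposited tables. The family as a whole has 22 genes, 14 receptors and 8 ephrins, and the other 12 were used for comparison. The cells were HCT116, an established human colorectal cancer line. In the siMatrin3 group they were transfected with a pool of small interfering RNAs against Matrin3, an RNA-binding protein of the nucleus whose gene is MATR3, and in the siCTRL group with a negative control siRNA. Both groups share the parental line and a schedule labelled 72 hours and 48 hours, which the study describes as rounds of transfection 72 hours apart. Poly(A) RNA was sequenced from 3 libraries in each group, described as biological triplicates. A knockdown lowers the message of its target and does not remove it.

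Eph receptors are the largest family of receptor tyrosine kinases, and their ligands, the ephrins, stay attached to the membrane of the neighbouring cell. A-type ephrins are held by a lipid anchor and mostly bind EPHA receptors, whereas B-type ephrins cross the membrane and mostly bind EPHB receptors. Contact sends a forward signal into the cell that carries the receptor and a reverse signal into the cell that carries the ephrin, and the usual outcome is repulsion or sorting of cells. In the intestinal crypt, EPHB2 and EPHB3 are known targets of Wnt signalling that keep cells in order along the crypt axis opposite ephrin-B1, and EPHB4 is the main receptor of ephrin-B2.

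In the test on counts, EFNB2 and EPHB3 were lower in siMatrin3 than in siCTRL. EFNB2 passed in 12 of 16 other settings of the fit and EPHB3 in 7. The promoters of EFNB2 and EPHB3 are shown with those of EFNB1 and EPHB2, their closest relatives among the 10 genes. EFNB1 and EPHB2 did not pass the test. Each sequence is the 250 bases before the start site listed by RefSeq on GRCh38.p14, written 5′ to 3′ on the strand of the gene. EFNB2 is at chr13:106535663-106535912 (minus strand), EFNB1 at chrX:68828771-68829020 (plus), EPHB3 at chr3:184561535-184561784 (plus) and EPHB2 at chr1:22710588-22710837 (plus, the first of 2 listed starts). Capitals mark the letters of the GC box (GGGCGG), the CCAAT box (CCAAT), the TATA box (TATAAA) and a core of TCF/LEF sites (CTTTGAT), searched on both strands.
EFNB2: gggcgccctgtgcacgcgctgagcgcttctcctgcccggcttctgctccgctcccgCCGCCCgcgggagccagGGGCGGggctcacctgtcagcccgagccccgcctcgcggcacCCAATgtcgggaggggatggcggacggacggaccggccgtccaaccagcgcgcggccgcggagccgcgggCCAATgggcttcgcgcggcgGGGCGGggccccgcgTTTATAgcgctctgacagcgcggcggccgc
EFNB1: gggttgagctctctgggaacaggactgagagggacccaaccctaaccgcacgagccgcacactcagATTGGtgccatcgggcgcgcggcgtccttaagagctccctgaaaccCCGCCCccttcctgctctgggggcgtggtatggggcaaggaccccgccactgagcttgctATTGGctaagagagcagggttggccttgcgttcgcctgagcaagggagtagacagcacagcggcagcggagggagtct
EPHB3: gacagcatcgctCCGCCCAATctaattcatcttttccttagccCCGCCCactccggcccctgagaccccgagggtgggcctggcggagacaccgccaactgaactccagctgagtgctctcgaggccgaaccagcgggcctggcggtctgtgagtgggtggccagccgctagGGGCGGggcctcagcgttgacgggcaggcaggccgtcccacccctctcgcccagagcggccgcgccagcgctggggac
EPHB2: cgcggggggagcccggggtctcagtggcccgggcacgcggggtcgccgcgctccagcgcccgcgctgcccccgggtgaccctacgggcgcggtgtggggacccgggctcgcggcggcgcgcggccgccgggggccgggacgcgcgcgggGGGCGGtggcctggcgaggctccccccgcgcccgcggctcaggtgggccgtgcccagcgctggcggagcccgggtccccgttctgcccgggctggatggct

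The EFNB2 window held 3 GC boxes, 2 CCAAT boxes and 1 TATA box, and the EFNB1 window 1 GC box and 2 CCAAT boxes. The EPHB3 window held 3 GC boxes and 1 CCAAT box, which overlaps a GC box, and the EPHB2 window 1 GC box. Of 27305 windows of the same length, 42.3% held a GC box, 33.0% a CCAAT box, 11.1% a TATA box and 2.28% the TCF/LEF letters. The TATA letters were found in EFNB2 alone of these 4 windows, and the TCF/LEF letters in none of them. GC content ran from 63.6% for EFNB1 to 84.8% for EPHB2, with EFNB2 at 78.4%. These matches describe the letters of the windows and were not related to the change in level.

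The libraries held 40808173 to 54185650 expected counts (estimated reads per gene) and their replicates differed by more than counting noise. Levels are given in TPM, which is scaled by transcript length and to the same total in each library and so can be compared between genes. Changes were tested on the counts with edgeR, and a gene was called when its p adjusted by Benjamini-Hochberg over the 16786 genes tested was under 0.05. By this rule 11.0% of all genes tested were called, 5.05% higher and 5.97% lower in siMatrin3. MATR3 itself fell from 186, 180 and 176 TPM in siCTRL to 95.2, 112 and 111 TPM in siMatrin3, which is -0.93 on the log2 scale of the counts (SE 0.0647, edgeR adjusted p = 7.67e-05). The epithelial markers EPCAM, CDH1, KRT8, KRT18 and KRT19 ran from 67.5 to 1287 TPM, and KRT18 alone of them was called (log2 fold change -0.15, edgeR adjusted p = 0.033), while the microvillus gene VIL1 was at 0.32 to 0.47 TPM. Of the leukocyte, endothelial and fibroblast markers, 9 of 10 were found in the tables, PTPRC and DCN were listed at 0 in all 6 libraries, and all others were under 1 TPM except COL1A1 at 13.6 to 19.0 TPM (edgeR adjusted p = 0.216). In bulk RNA, fewer cells of a type and less RNA per cell cannot be told apart.

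All 10 genes passed the filter on low counts. They were chosen with earlier results of these data known, so counts among them cannot be read as those of genes picked blind. EFNB2 and EPHB3 were called lower and 0 genes were called higher, beside 5.97% and 5.05% of all genes tested. DESeq2 called EPHA2 lower as well and 0 genes higher. At an unadjusted p under 0.05 there were 3 genes in edgeR, these same 3, beside 26.0% of all genes tested. DESeq2 called 5.73% of all genes higher and 5.52% lower. The median log2 fold change of the 10 genes was -0.03, with 4 above and 6 below 0, and that of all genes tested was -0.001. TPM did not overlap between the groups for 3 of the 10 genes (EPHA1, EPHA2 and EFNB2), and for 25.1% of all genes tested.

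**Figure D1:**
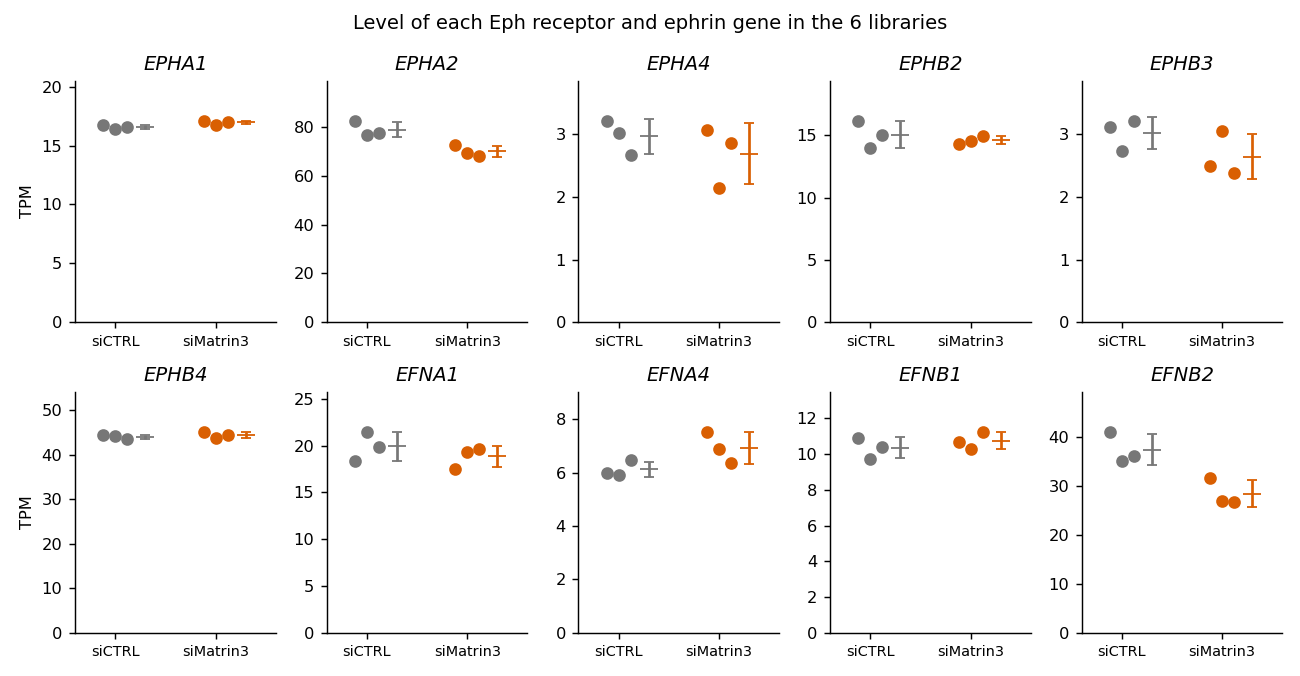
TPM of the 10 genes in each library (points) with the mean and SD of each group (n = 3) beside them, on axes that start at 0. The siMatrin3 points of EFNB2 (26.6 to 31.5 TPM) all lie below its siCTRL points (35.1 to 41.0 TPM), and those of EPHB2, EPHB4 and EFNB1 lie within or across the siCTRL range.

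Among the 4 ephrins followed, EFNB2 (ENSG00000125266, chromosome 13), which encodes the transmembrane ligand ephrin-B2, was the one called. It was at 41.0, 35.1 and 36.0 TPM in siCTRL and at 31.5, 27.0 and 26.6 TPM in siMatrin3. All 3 siMatrin3 libraries were below all 3 siCTRL libraries, and replicate 1 was the highest of its group in both. The means were 37.4 ± 3.16 and 28.4 ± 2.74 TPM (SD, n = 3 each). The log2 fold change of the counts was -0.38 (SE 0.0802, 95% interval -0.55 to -0.20, edgeR adjusted p = 0.0159), and 8.64% of all genes tested had a lower fold change. The call ended without siMatrin3 replicate 2 (-0.34, edgeR adjusted p = 0.053) or replicate 3 (-0.32, edgeR adjusted p = 0.0827), and with limma on log2(TPM + 1) (-0.39, adjusted p = 0.084) or log2(TPM + 0.1) (-0.40, adjusted p = 0.121). The counts behind these values were 7575, 5003 and 6099 in siCTRL and 5988, 4074 and 4253 in siMatrin3.

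EFNB1 (ENSG00000090776, chromosome X), which encodes the related transmembrane ligand ephrin-B1, did not pass the test. It was at 10.9, 9.74 and 10.4 TPM in siCTRL and at 10.7, 10.3 and 11.2 TPM in siMatrin3, so the groups overlapped. Its log2 fold change was 0.07 (SE 0.0561, 95% interval -0.05 to 0.20, edgeR adjusted p = 0.458). The ratio of EFNB2 to EFNB1 TPM within a library was 3.76, 3.60 and 3.46 in siCTRL and 2.95, 2.62 and 2.37 in siMatrin3, without overlap. This ratio is taken within each library and so does not depend on the scaling between libraries.

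The A-type ephrins did not pass the test. EFNA1 (ENSG00000169242, chromosome 1), a lipid-anchored ligand of EPHA2, was at 18.4, 21.5 and 19.9 TPM in siCTRL and at 17.5, 19.4 and 19.7 TPM in siMatrin3. The groups overlapped, and the log2 fold change was -0.05 (SE 0.0607, 95% interval -0.18 to 0.09, edgeR adjusted p = 0.691). EFNA4 (ENSG00000243364, chromosome 1), another lipid-anchored ligand, was at 5.99, 5.92 and 6.46 TPM in siCTRL and at 7.53, 6.89 and 6.36 TPM in siMatrin3. Of the siMatrin3 libraries, replicate 3 lay within the siCTRL range and the others above it. Its log2 fold change of 0.21 was the highest of the 10 genes (SE 0.0995, 95% interval -0.01 to 0.43, edgeR adjusted p = 0.206), and it was 0.14 without siMatrin3 replicate 1 and 0.12 when both replicates numbered 1 were left out. EFNA4 shares exons on the same strand with a read-through gene, EFNA4-EFNA3, which was listed at 0 in all 6 libraries, so its counts depend on how the authors' tool divided shared reads.

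Of the 3 EPHB receptors among the 10 genes, EPHB3 (ENSG00000182580, chromosome 3), a Wnt target of the crypt base, was the one called. Its counts were 492, 348 and 453 in siCTRL and 338, 311 and 339 in siMatrin3, which is 9.31, 8.39 and 9.33 CPM (counts scaled by library size, not by length) against 6.33, 7.23 and 7.45. On that scale the groups did not overlap, and the log2 fold change was -0.37 (SE 0.0884, 95% interval -0.56 to -0.17, edgeR adjusted p = 0.0249). In TPM it was at 3.11, 2.73 and 3.21 in siCTRL and at 2.49, 3.05 and 2.38 in siMatrin3. On this scale the second siMatrin3 library lay inside the siCTRL range and the groups overlapped.

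TPM divides by an effective length that the authors' tool derived from the transcript length it assigned to a gene in each library. For EPHB3 the transcript length was 3830, 3990 and 3740 bases in siCTRL and 3237, 3055 and 3976 bases in siMatrin3. Its coefficient of variation over the 6 libraries was 10.9%, the highest of the 10 genes. With the effective length as an offset in edgeR (the length offset), the log2 fold change of EPHB3 was -0.18 (edgeR adjusted p = 0.429). In limma it was -0.14 on log2(TPM + 1) (adjusted p = 0.412) and -0.19 on log2(TPM + 0.1) (adjusted p = 0.44). The edgeR call also ended without siCTRL replicate 1 or 3 (adjusted p = 0.0659 and 0.0932) and without siMatrin3 replicate 1, 2 or 3 (adjusted p = 0.0735, 0.0546 and 0.0522). When the replicates numbered 1 were both left out, the log2 fold change was -0.28 (edgeR adjusted p = 0.137).

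EPHB2 (ENSG00000133216, chromosome 1), the other crypt receptor, was at 16.13, 13.95 and 15.04 TPM in siCTRL and at 14.31, 14.54 and 14.96 TPM in siMatrin3. All 3 siMatrin3 values lay within the siCTRL range, and the log2 fold change was -0.02 (SE 0.0552, 95% interval -0.14 to 0.10, edgeR adjusted p = 0.878). EPHB4 (ENSG00000196411, chromosome 7), the receptor of ephrin-B2, was at 44.5, 44.2 and 43.5 TPM in siCTRL and at 45.2, 43.8 and 44.5 TPM in siMatrin3. The groups overlapped in TPM but not in CPM, at 125 to 130 and 132 to 139, and the log2 fold change was 0.08 (SE 0.0409, 95% interval -0.01 to 0.18, edgeR adjusted p = 0.225). The ratio of EFNB2 to EPHB4 TPM, ligand to receptor, was 0.920, 0.793 and 0.828 in siCTRL and 0.698, 0.616 and 0.598 in siMatrin3, without overlap. That of EPHB3 to EPHB2 was 0.193, 0.196 and 0.213 in siCTRL and 0.174, 0.210 and 0.159 in siMatrin3, with overlap. The groups also overlapped in the ratio of EFNA1 to EPHA2, but not in that of EFNB1 to EPHB2. No test was made on the ratios, and each moves when either gene does.

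Of the EPHA receptors, none passed the test. EPHA2 (ENSG00000142627, chromosome 1), the receptor often found at high level in epithelial cancers, was at 82.4, 76.8 and 77.8 TPM in siCTRL and at 72.7, 69.4 and 68.2 TPM in siMatrin3. All 3 siMatrin3 libraries were below all 3 siCTRL libraries, with means of 79.0 ± 3.003 and 70.1 ± 2.32 TPM (SD, n = 3 each). The log2 fold change was -0.16 (SE 0.0477, 95% interval -0.26 to -0.05, edgeR adjusted p = 0.0639). EPHA2 passed without siCTRL replicate 2 (-0.18, edgeR adjusted p = 0.0403) or siMatrin3 replicate 1 (-0.19, edgeR adjusted p = 0.0397), with DESeq2 (-0.15, adjusted p = 0.0217), and in 4 further settings of edgeR, 7 of 16 in all.

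EPHA1 (ENSG00000146904, chromosome 7), whose ligands include ephrin-A1, was at 16.7, 16.4 and 16.6 TPM in siCTRL and at 17.1, 16.8 and 17.1 TPM in siMatrin3. These groups did not overlap in TPM but did in CPM, and the log2 fold change was 0.04 (SE 0.0448, 95% interval -0.06 to 0.14, edgeR adjusted p = 0.638). EPHA4 (ENSG00000116106, chromosome 2), a receptor that binds ephrins of both types, was at 3.21, 3.02 and 2.67 TPM in siCTRL and at 3.07, 2.15 and 2.86 TPM in siMatrin3. The groups overlapped, and the log2 fold change was -0.15 (SE 0.0835, 95% interval -0.33 to 0.04, edgeR adjusted p = 0.305). The exons of EPHA1 and EPHB4 overlap those of ZYX and SLC12A9 on the opposite strand. The kit marks strand, but the strand setting used in counting is not given in the sources used here.

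**Figure D2:**
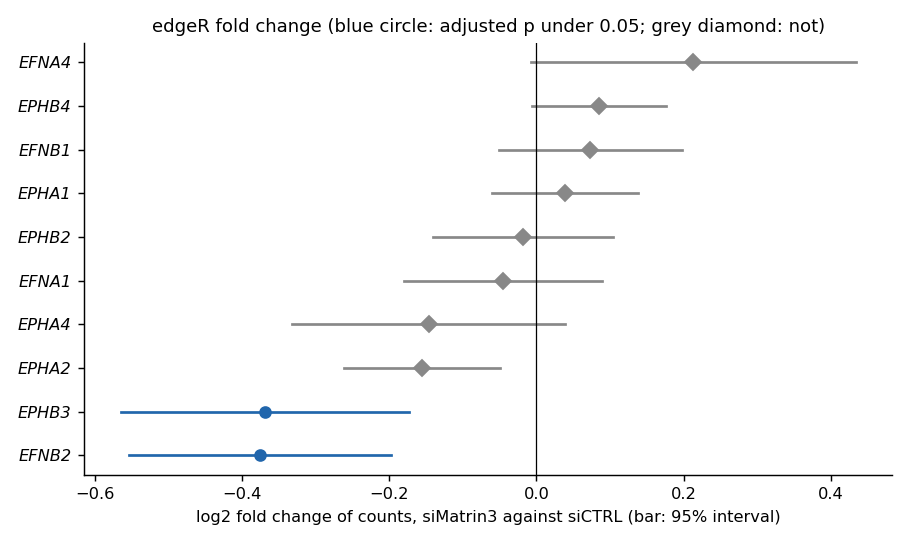
The log2 fold change of the counts of each gene (siMatrin3 against siCTRL, edgeR, n = 3 each) with its 95% interval. Circles in blue are EFNB2 (-0.38) and EPHB3 (-0.37), the genes with an adjusted p under 0.05, and grey diamonds are the others, from -0.16 for EPHA2 to 0.21 for EFNA4.

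The order of the levels was the same in both groups except at its foot. In siCTRL, EPHA2 led at 79.0 ± 3.003 TPM, ahead of EPHB4 at 44.1 ± 0.498, EFNB2 at 37.4 ± 3.16, EFNA1 at 19.9 ± 1.54, EPHA1 at 16.6 ± 0.175 and EPHB2 at 15.04 ± 1.09 TPM (SD, n = 3 each). EFNB1 followed at 10.4 ± 0.578 and EFNA4 at 6.12 ± 0.294 TPM, and EPHB3 (3.02 ± 0.253) and EPHA4 (2.97 ± 0.274) stood last (SD, n = 3 each). EPHB3 and EPHA4 were the only neighbours in this order whose values overlapped, in siCTRL and in siMatrin3, and EPHB3 was above EPHA4 in 2 of 6 libraries. Every other gene was above the next in all 6 libraries.

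Summed over the 6 receptors, the level was 166, 157 and 159 TPM in siCTRL and 155, 150 and 150 TPM in siMatrin3. Summed over the 4 ephrins, it was 76.2, 72.2 and 72.8 TPM in siCTRL and 67.3, 63.5 and 63.9 TPM in siMatrin3. In both sums the groups did not overlap, and the genes with the largest levels set them. EPHA2 took 49.2 ± 0.403% of receptor TPM in siCTRL and 46.3 ± 0.745% in siMatrin3, and EPHB4 took 27.5 ± 0.685% and 29.4 ± 0.278% (SD, n = 3 each). The EPHB receptors together held 38.7 ± 0.280% of receptor TPM in siCTRL and 40.8 ± 0.636% in siMatrin3 (SD, n = 3 each), a difference of 2.07 percentage points without overlap between the groups. With all 14 receptors in the sum, EPHB6 and EPHA10 among them, the difference was 1.37 percentage points and the groups overlapped.

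EFNB2 alone took 50.6 ± 2.75% of ephrin TPM in siCTRL and 43.7 ± 2.80% in siMatrin3, again without overlap (SD, n = 3 each). The share of both B-type ephrins was 68.0, 62.1 and 63.8% in siCTRL and 62.8, 58.7 and 59.3% in siMatrin3. Its difference of the means was -4.40 percentage points, and the first siMatrin3 library lay inside the siCTRL range. It was -2.71 percentage points without siCTRL replicate 1 and -2.57 in CPM. These sums leave out the relatives of the 10 genes that were also present, such as EFNA3 and EFNA2. With all 8 ephrins in the sum, EFNB2 took 39.1 ± 2.56% in siCTRL and 31.8 ± 3.09% in siMatrin3 (SD, n = 3 each) and the B-type share differed by -6.14 percentage points, both without overlap. No test was made on these shares, since each share moves when another gene of the sum does.

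**Figure D3:**
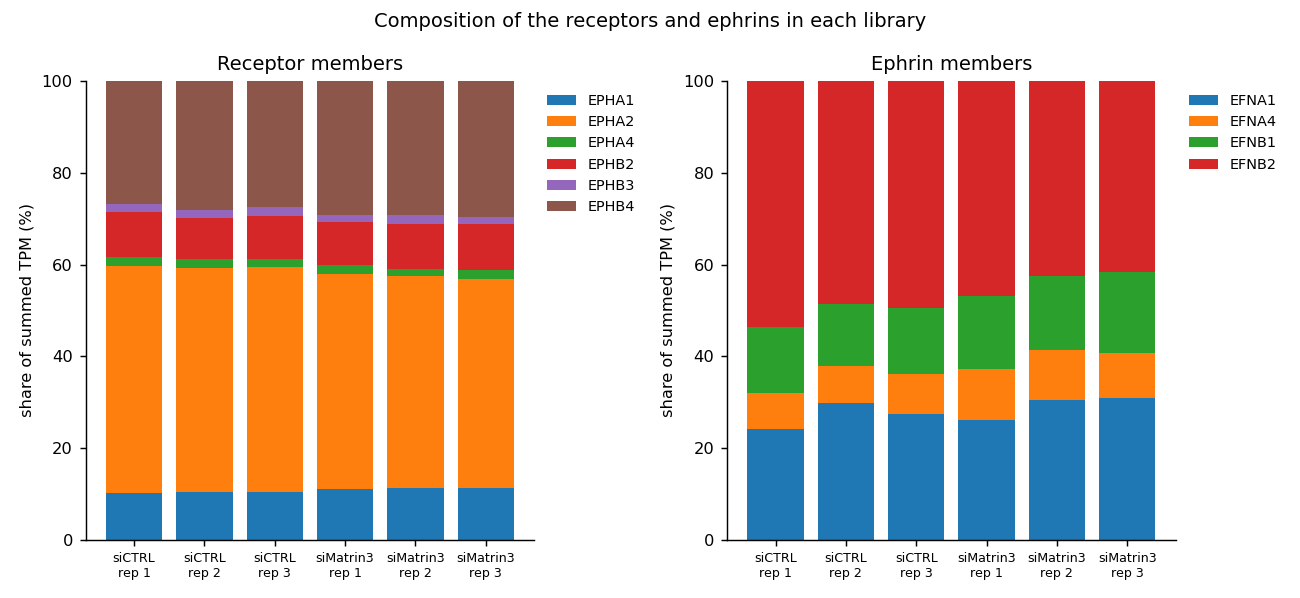
Share of each gene in the summed TPM of the 6 receptors (left) and of the 4 ephrins (right), in percent, for each library. EFNB2 takes 48.6 to 53.7% of ephrin TPM in siCTRL and 41.7 to 46.9% in siMatrin3, and EPHA2 takes 48.9 to 49.6% and 45.5 to 47.0% of receptor TPM.

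The study asks how Matrin3 acts on splicing, and the tables hold 1 measure that moves with the mix of transcripts, a gene's transcript length, in which each transcript counts by its estimated abundance. Among genes with at least 2 annotated transcripts and 50 counts in every library, limma on log2 length called 1 of 12152 genes (0.00823%). Of the 10 genes 8 could be tested, and 0 were called, also at an unadjusted p under 0.05, which 768 of all genes reached. The lowest adjusted p among them was 0.879 (limma), that of EPHB4. The log2 difference in length of EPHB3 was -0.18 (SE 0.108, limma adjusted p = 0.897), and it was -0.10 without siMatrin3 replicate 2 and -0.29 without siMatrin3 replicate 3. EFNB1 and EFNB2 have 1 annotated transcript each, of 3314 and 4447 bases, and were left out. A change of a short exon may not show in this measure. The study itself measured splicing in its poly(A) libraries with rMATS, found mostly skipped-exon events and checked several by PCR. A length that was not called therefore does not show that splicing was unchanged.

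Among the 10 genes the receptors and the ephrins differed in exon number, while their locus spans overlapped. In GENCODE release 44 the 6 receptors had 16 to 18 exons in the representative transcript and the 4 ephrins 4 or 5. Locus span ran from 18.6 kb for EPHA1 to 211 kb for EPHB2 among the receptors, and from 5.8 kb for EFNA4 to 45.9 kb for EFNB2 among the ephrins. EFNB2 thus had the longest locus of the 4 ephrins followed, while EPHB3, at 20.6 kb, was the second shortest of the 6 receptors followed. Outside the 10 genes, the ephrin EFNA5 spans 294.0 kb. EPHB2 and EPHA4 had the longest loci of the 10 genes (211 and 156 kb). A relation of locus span to the change in level was not tested.

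Of the other 12 genes of the family, 4 reached 1 TPM in at least 1 library and 8 did not. Of these 12 genes 7 were tested, and 4 of the 7 had an unadjusted p under 0.05 in edgeR, beside 26.0% of all genes tested. EPHB6, a receptor whose kinase domain is inactive, was the 1 gene of the 7 that was called, beside 11.0% of all genes tested. It was at 9.45, 10.9 and 10.1 TPM in siCTRL and at 6.63, 9.40 and 9.76 TPM in siMatrin3, with overlap in TPM but not in CPM. Its log2 fold change was -0.26 (95% interval -0.39 to -0.13, edgeR adjusted p = 0.0195), and the call ended without siCTRL replicate 1 or 3 (edgeR adjusted p = 0.0511 and 0.0735), with both replicates numbered 1 left out, with the length offset (-0.23, edgeR adjusted p = 0.353) and with limma on TPM.

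EFNA3, an A-type ephrin next to EFNA4 that shares exons with the same read-through gene, was at 14.8, 14.9 and 16.8 TPM in siCTRL and at 16.5, 18.5 and 19.2 TPM in siMatrin3. Its log2 fold change was 0.23 (95% interval 0.07 to 0.39, edgeR adjusted p = 0.0715), with overlap in TPM but not in CPM. It passed in 3 of 16 settings, among them those without siCTRL replicate 3 (0.30, edgeR adjusted p = 0.045) and without a filter (edgeR adjusted p = 0.0154). EPHA10, another receptor without kinase activity, had a log2 fold change of 0.03 (edgeR adjusted p = 0.816) and EFNA2 of 0.08 (edgeR adjusted p = 0.626). EPHA8 had 30 to 47 counts in siCTRL and 15 to 23 in siMatrin3 (edgeR adjusted p = 0.0592), and EFNA5 15 to 18 and 7 to 10 counts (edgeR adjusted p = 0.0818), both without overlap in CPM. EFNB3, the remaining B-type ephrin, had 14 to 22 counts over the 6 libraries. EPHA3, EPHA5, EPHA6, EPHA7 and EPHB1 were too low to be tested.

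Genes known to act with Eph receptors and ephrins were followed in 5 lists of 63 genes, of which 59 were tested. FYN, PIK3R1, PTPN13 and GRIP1 were called lower and 0 genes were called higher, beside 5.97% and 5.05% of all genes tested. At an unadjusted p under 0.05 there were 15 genes in either direction, 15 of 59 beside 26.0% of all genes tested. DESeq2 called SRC, SHC1 and GIT1 higher and FYN and PIK3R1 lower, beside 5.73% and 5.52% of all genes. The median log2 fold change was -0.02.

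Of the 19 adaptors and kinases of forward signalling 2 were called lower, beside 5.97% of all genes tested. FYN, a kinase of the Src family, was at 26.0, 27.6 and 23.8 TPM in siCTRL and at 20.8, 21.4 and 20.1 TPM in siMatrin3, without overlap (log2 fold change -0.20, SE 0.046, edgeR adjusted p = 0.0209). PIK3R1, the regulatory subunit of PI3 kinase, was at 4.76, 4.44 and 4.27 TPM in siCTRL and at 3.86, 3.62 and 3.62 TPM in siMatrin3, also without overlap (log2 fold change -0.23, SE 0.0573, edgeR adjusted p = 0.0289). Both calls ended without siCTRL replicate 1 (edgeR adjusted p = 0.0569 and 0.0882) and without siMatrin3 replicate 3 (edgeR adjusted p = 0.0963 and 0.117). That of FYN also ended without siCTRL replicate 3 (edgeR adjusted p = 0.0663), and that of PIK3R1 without siMatrin3 replicate 2 (edgeR adjusted p = 0.0914). The Src kinase gene SRC was at 0.21 on the log2 scale (edgeR adjusted p = 0.0554) and passed without siCTRL replicate 1 or siMatrin3 replicate 2 (edgeR adjusted p = 0.0437 and 0.0413). The adaptor SHC1 was at 0.14 on the same scale (edgeR adjusted p = 0.0998).

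Of the 11 partners of reverse signalling 2 were called lower, beside 5.97% of all genes tested. PTPN13, a phosphatase that binds the tail of B-type ephrins, was at 7.14, 6.74 and 6.67 TPM in siCTRL and at 5.90, 5.58 and 5.82 TPM in siMatrin3 (log2 fold change -0.17, SE 0.0489, edgeR adjusted p = 0.0494). GRIP1, a scaffold that binds the same tail, had 19, 12 and 19 counts in siCTRL and 10, 6 and 5 in siMatrin3, which is -1.23 on the log2 scale, at few counts (SE 0.354, edgeR adjusted p = 0.0487). The PTPN13 call ended without siCTRL replicate 1 or 3 (edgeR adjusted p = 0.142 and 0.098), without siMatrin3 replicate 2 or 3 (edgeR adjusted p = 0.155 and 0.166) and with DESeq2 (adjusted p = 0.0727). GRIP1 overlapped in TPM and was at -0.72 with the length offset (edgeR adjusted p = 0.513), at -0.12 with limma on log2(TPM + 1) (adjusted p = 0.505) and at -0.48 on log2(TPM + 0.1) (adjusted p = 0.524). Without a filter its edgeR adjusted p was 0.0879. The GRIP1 call ended whichever library was left out, with edgeR adjusted p from 0.0639 without siCTRL replicate 2 to 0.179 without siMatrin3 replicate 3. GIT1 and DVL1 had log2 fold changes of 0.13 and 0.07 (edgeR adjusted p = 0.0919 and 0.342).

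The 7 genes of shedding and cleavage, which cut ephrins and receptors at the cell surface, were within 0.10 of 0 on the log2 scale. In edgeR 0 of the 7 passed, beside 11.0% of all genes tested. In DESeq2 0 of them passed, beside 5.73% of all genes higher and 5.52% lower. NCSTN was at -0.05 (edgeR adjusted p = 0.457), PSENEN at 0.07 (edgeR adjusted p = 0.493) and the protease MMP14 at 0.10 (edgeR adjusted p = 0.165). In that list 1 of 7 genes had an unadjusted p under 0.05 in edgeR, beside 26.0% of all genes tested. Of the 7 Wnt regulators of EPHB genes 4 were tested, and 0 passed in edgeR or in DESeq2, beside the same shares of all genes. An unadjusted p under 0.05 was reached by 2 of the 4 in edgeR, beside 26.0% of all genes tested. AXIN2, a standard readout of Wnt signalling, was at 2.60, 3.33 and 2.83 TPM in siCTRL and at 2.01, 2.38 and 2.67 TPM in siMatrin3, with overlap in TPM but not in CPM (log2 fold change -0.36, edgeR adjusted p = 0.0839). It passed in 2 of 16 settings, such as that without a filter on low counts (edgeR adjusted p = 0.00944). TCF7, CTNNB1 and TCF7L2 had log2 fold changes of 0.15, -0.07 and 0.00 (edgeR adjusted p = 0.0944, 0.308 and 0.982). LEF1, ASCL2 and LGR5 had at most 3 counts in a library and were not tested.

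**Figure D4:**
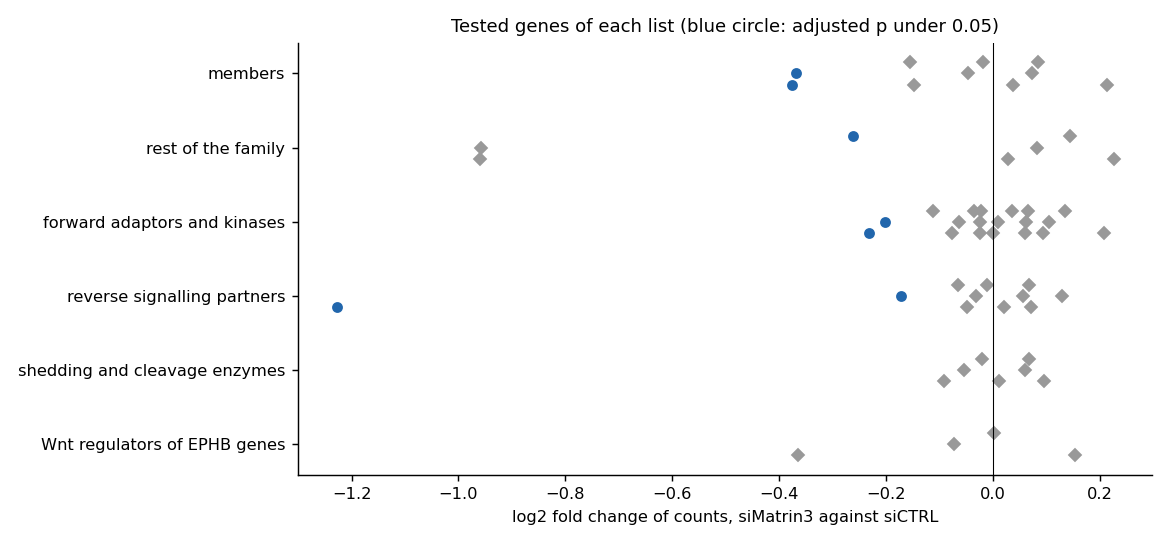
The log2 fold change of the counts (siMatrin3 against siCTRL, edgeR) of each tested gene of the 10 genes (members), the rest of the family and 4 of the partner lists, 1 point a gene. Blue circles have an adjusted p under 0.05 (EFNB2, EPHB3, EPHB6, FYN, PIK3R1, PTPN13 and GRIP1), all left of 0, and the grey diamonds of the 10 genes lie between -0.16 and 0.21.

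Across 16 other settings of the fit, EFNB2 kept its call in 12 and EPHB3 in 7. The log2 fold change of EFNB2 ran from -0.47 to -0.30 and that of EPHB3 from -0.42 to -0.14. EPHB2, which was not called in any, changed sign in 2.

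**Figure D5:**
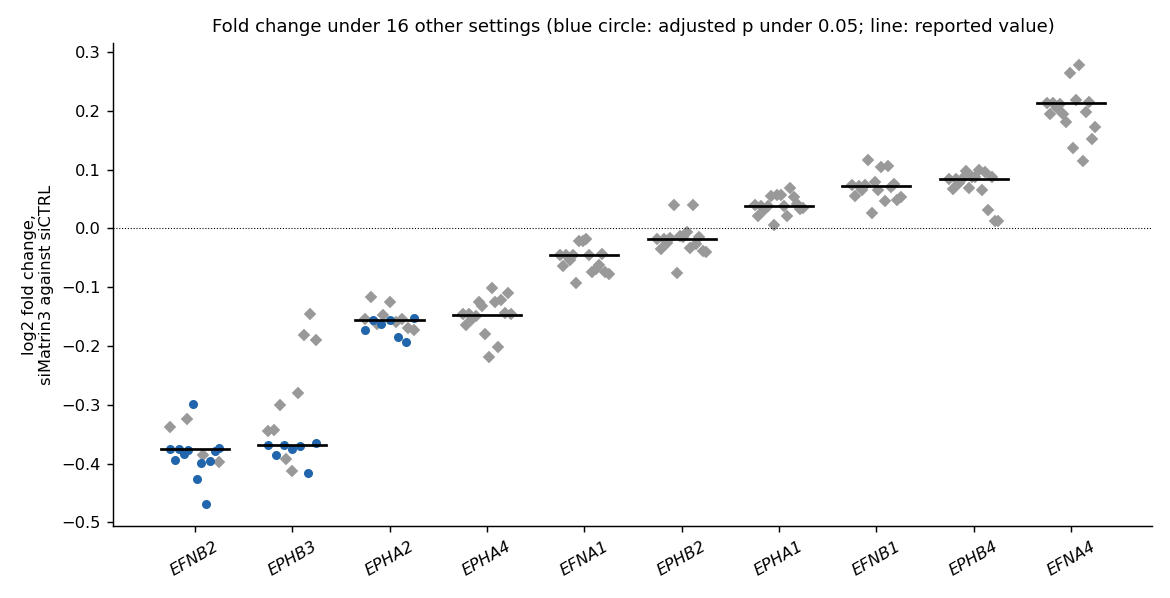
The log2 fold change of the 10 genes under 16 other settings (points) and as reported (line). The blue circles of EFNB2 (12 of 16) and EPHB3 (7 of 16) are settings with an adjusted p under 0.05, EPHA2 has 7, and no setting called another of the 10 genes.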

How the data were processed

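Groups came from the labels. The authors aligned paired reads from a stranded mRNA kit to hg19 with STAR and estimated levels with RSEM. STAR 2.5.1 and cutadapt are named in the submitters' processing notes, and the study's methods name another STAR version and state that cells were reseeded 48 hours after the last transfection and RNA was taken 3 days after it, later than labelled. The authors deposited expected counts, TPM and FPKM per gene, with transcript lengths averaged by RSEM. FPKM was not used. Shared reads were divided by RSEM, so counts of similar genes are estimates.

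In R 4.3.3, edgeR 4.0.16 (filterByExpr, TMM scaling, two-sided quasi-likelihood test, no covariates) was run on rounded expected counts over 16786 genes, with limma 3.58.1 for length and TPM and DESeq2 1.42.0, the study's tool, as an alternative. P-values reflect how far libraries within a group differ. Steps were run on simulated data as a check of the code. Its pass limits were set at changes larger than most of those reported here.

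The 10 genes and the lists were chosen with earlier results of these data known. Genes named were these, relatives at 1 TPM or more on average in a group, MATR3, markers and the 4 tested genes of each partner list with the smallest p, of which a list and a gene are not reported here. Relatives under 1 TPM, tested or not, and list members too low to be tested were named to account for them. Names and exons came from GENCODE release 44 and promoters from RefSeq, both on GRCh38, not the build of the tables. Alternatives were other scalings, filters, tests, units and thresholds, a block and left-out libraries.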

Additional observations from a re-analysis of the deposited data

How the results depend on the processing

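The count of genes lower among the 10, 2 as reported, was 3 with upper quartile scaling, no filter, a filter of 1 CPM, the replicate block or DESeq2, 1 with the length offset or without replicate 1 of both groups, and 0 with limma on log2(TPM + 1) or log2(TPM + 0.1) or an adjusted p under 0.01. Leaving out a library in turn gave 0 to 3, with 0 without siMatrin3 replicate 2 or 3. The count of the 10 genes higher was 0 under every setting, and that of changed lengths was 0 under all 10 settings. Partner genes higher, 0 as reported, were 1 without a filter, 4 with the replicate block, 3 with DESeq2 and 0 to 1 with a library left out. Partner genes lower, 4 as reported, were 2 with the length offset or DESeq2, 0 with limma on either TPM scale, an adjusted p under 0.01 or without replicate 1 of both groups, and 0 to 5 with a library left out. The cause was not tested. Direction turned for EPHB2 (0.040 without siCTRL replicate 1, with a range of -0.076 to 0.040 as each library was left out, and 0.041 without replicate 1 of both groups), EPHA10 (-0.0039 and -0.013 in the same settings, up to 0.062 with a library left out) and TCF7L2 (-0.016 with upper quartile scaling, -0.0054 with 1 CPM, -0.048 with the length offset, -0.065 with limma on either scale, -0.011 without siCTRL replicate 2, -0.011 without siMatrin3 replicate 3 and up to 0.012 with another library left out), none of them called. The EPHB share differed by 2.86 percentage points in CPM and by 1.37 with all 22 genes in the sums, an alternative chosen after seeing the data.

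The labels give each library a number within its group and do not say whether libraries of the same number were paired. The deviations of such libraries from their group means correlated at 0.177, 0.0896 and 7.2e-05 for numbers 1, 2 and 3. Not every library correlated best with its own number. With the replicate block, EPHA2 joined the genes called lower (adjusted p = 0.0152), AXIN2 (0.022) and EFNA3 (0.0164) passed, GRIP1 did not (0.0576), and calls over all genes went from 847 to 1338 higher and from 1002 to 1378 lower. Over all genes, calls higher and lower were 81 and 242 with limma on log2(TPM + 1), 51 and 184 on log2(TPM + 0.1), 290 and 416 with the length offset, 207 and 354 at an adjusted p under 0.01, and 542 and 674 without replicate 1 of both groups, and leaving out a library gave 292 to 687 and 467 to 912.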
